A study of Caenorhabditis elegans with 8 samples.

Results

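The genes described here are the Hedgehog-related and patched-related genes of *C. elegans*. They were chosen by symbol, as every gene of the authors' normalized table whose name begins with *ptc-*, *ptr-*, *qua-*, *hog-*, *wrt-*, *grd-* or *grl-* followed by a digit. This gave 62 of the 14334 genes in that table, namely 2 *ptc*, 22 *ptr*, 9 *wrt*, 11 *grd* and 16 *grl* genes, with *qua-1* and *hog-1*. The count table lists 85 symbols of this form. The other 23 did not reach a CPM (counts scaled to the total and composition of a library) above 1 in at least 2 libraries, 6 of them had 0 counts in all 8 libraries, and no count among them was above 7. Genes kept by this filter include some that passed because they were high in a single group.

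Whole worms labelled as L4, the last larval stage, were grown on OP50 bacteria. The 4 groups were *nhr-49*(*nr2041*) mutants exposed for 4 hr to 7.5 mM tBOOH (*tert*-butyl hydroperoxide, an organic peroxide), untreated *nhr-49*(*nr2041*) mutants, N2 wild-type worms exposed in the same way, and untreated N2 worms. *nhr-49* encodes a nuclear hormone receptor, and *nr2041* is a null allele that is carried by every cell of the animal and was crossed into the N2 background. Each group has 2 libraries that the labels number 1 and 3. The study describes them as biological replicates, with no further detail of how they were grown. RNA came from all tissues at once, so that fewer cells of a type and less RNA per cell cannot be told apart.

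*C. elegans* has no close homologue of Hedgehog or of Smoothened, the membrane protein through which Hedgehog signals in other animals. It has instead a large set of secreted Hedgehog-related proteins. These are the warthog (*wrt*), groundhog (*grd*), ground-like (*grl*) and quahog (*qua*) proteins, named after the domain at their N-terminus, and some of them share with Hedgehog the C-terminal Hog domain by which the precursor cuts itself. The patched (*ptc*) and patched-related (*ptr*) proteins are membrane proteins with a sterol-sensing domain. Many genes of both kinds are known to be expressed in the epidermis and the cells that line openings of the body, to be required for molting, and to have mRNA levels that swing with each molting cycle.

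Libraries held 2157766 to 5852727 counts, so that 3 counts, taken as the detection floor, stood for 0.508 to 1.55 CPM. This floor covers counting error only. The 62 genes together took 0.201% to 0.543% of the counts. Counts on *nhr-49* itself, which are per gene and do not tell whether reads lie within the deletion, came to 32.7 and 27.7 CPM in tBOOH-treated and 21.2 and 36.1 CPM in untreated mutants, against 109.6 and 107.6 CPM in tBOOH-treated and 68.5 and 66.1 CPM in untreated N2. The libraries differed in markers of stage. The summed level of 6 yolk genes, which are switched on in the adult intestine, was 3560 and 833 CPM in the tBOOH-treated and untreated *nhr-49* libraries of replicate 3, and lay between 23569 and 85701 CPM in the other 6 libraries. A set of 26 genes of the molting cycle and of the epidermal cuticle, all of them kept, summed to 2235 and 5787 CPM in tBOOH-treated *nhr-49*, 7904 and 10304 CPM in untreated *nhr-49*, 640 and 1752 CPM in tBOOH-treated N2, and 5346 and 11322 CPM in untreated N2. Genes of body wall muscle, another tissue of the whole worm, summed to 12140 to 18648 CPM over the 8 libraries. Their sums too were lower with tBOOH, at 14240 and 12140 CPM in treated and 17127 and 17701 CPM in untreated *nhr-49*. In N2 the sums were 12592.5 and 12710 CPM with and 18648 and 18230 CPM without tBOOH. None of these 4 muscle genes had an adjusted p under 0.05 for tBOOH in either genotype in edgeR's exact test. Sets of other tissues differed in direction. Their median log2 fold changes with tBOOH in N2 were -0.50 for intestine, -0.13 for neurons, -0.01 for sperm, 0.38 for germ line and 0.69 for oocyte and embryo, against -0.58 for muscle.

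All 62 symbols were found in the WBcel235 annotation, with 21 genes on chromosome V, 11 on II, 10 on X, 8 on I, 8 on IV and 4 on III. An exon overlapped that of another coding gene for 15 of them. These were *grd-9*, *grd-11*, *grd-12*, *grl-1*, *grl-2*, *grl-10*, *grl-14*, *grl-15*, *grl-22*, *hog-1*, *ptr-1*, *ptr-8*, *ptr-10*, *ptr-15* and *wrt-2*. The sources used here do not say whether reads were counted by strand or how reads shared by members of a family were treated. Levels between genes are compared only as CPM per kb of exon of that annotation, averaged over the 8 libraries. On this scale *grl-16* was highest at 595 CPM per kb, followed by *grd-14* (172), *grl-7* (169), *grd-5* (131), *ptc-1* (91.8), *wrt-10* (91.5), *wrt-6* (79.1) and *wrt-4* (78.8). At the other end, *grl-25*, *grd-9* and *wrt-3* had 0.122, 0.276 and 0.395 CPM per kb. In CPM, 43 of the 62 genes averaged at least 10 over the libraries. All values that follow are levels in CPM after TMM scaling unless they are named as log2 fold changes.

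**Figure D1:**
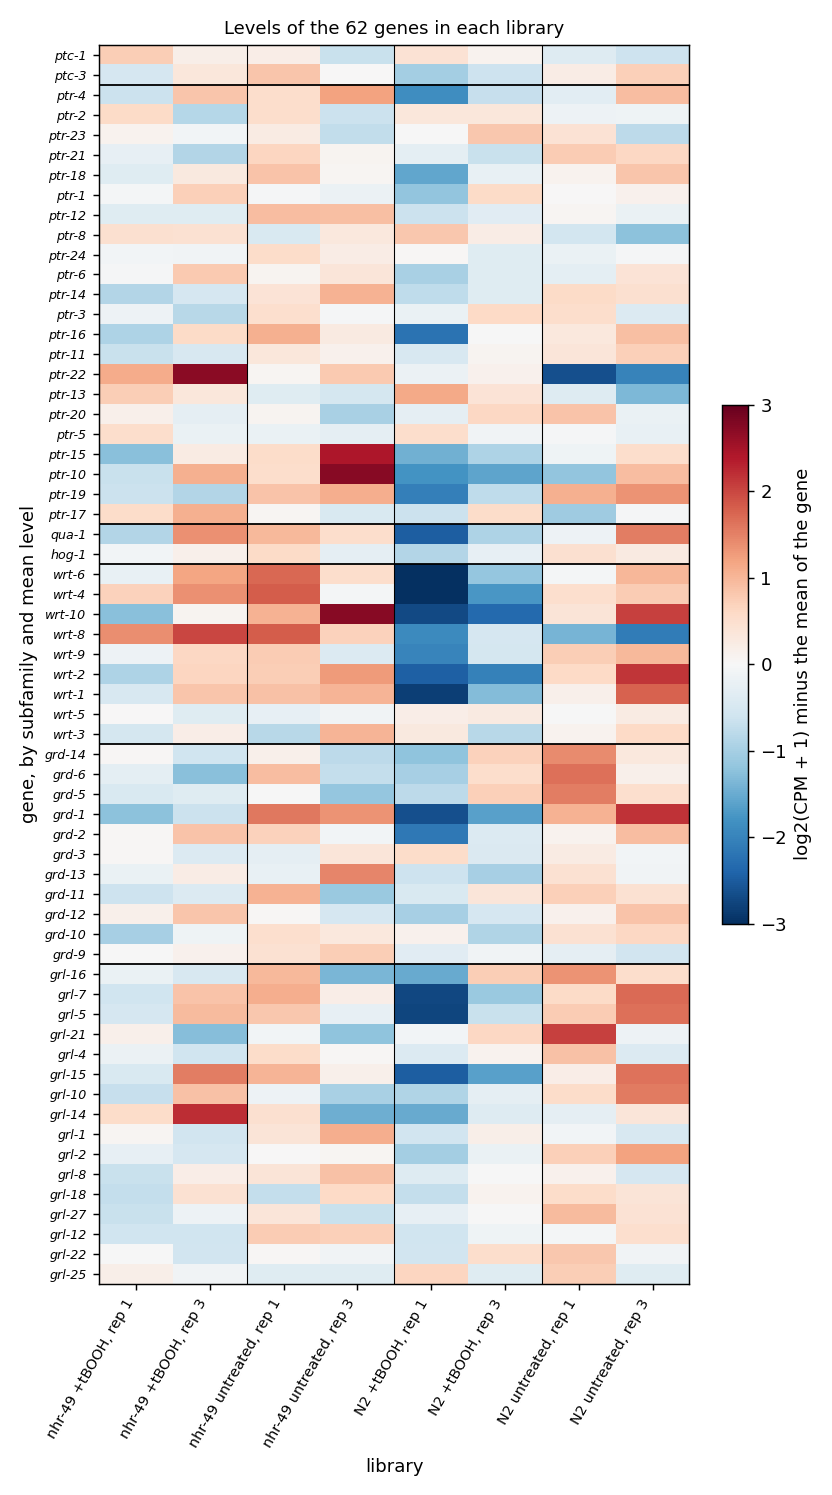
Level of each of the 62 genes (rows, by subfamily and mean level) in each of the 8 libraries (columns), as log2(CPM + 1) minus the mean of the gene over the libraries. Most *wrt* genes, *grd-1*, *grl-5*, *grl-7* and *grl-15* are lowest in both tBOOH-treated N2 libraries, while *wrt-8* is high in all 4 *nhr-49* libraries.

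In N2 worms, tBOOH lowered a block of secreted Hedgehog-related genes and raised a few patched-related ones. Of the 62 genes, edgeR's exact test called 11 lower (17.7%) and 3 higher (4.84%) at an adjusted p under 0.05, while 3.14% of all 14334 genes fell and 2.2% rose. The median log2 fold change was -1.12 over the 62 genes and 0.05 over all genes. Both treated libraries lay below both untreated ones for 35 of the 62 genes (56.5%), against 27.5% of all genes, and above them for 5 (8.06%), against 32.3% of all genes. At an unadjusted p under 0.05 there were 26, against 15.9% of all genes. The calls depend on 2 of the 4 libraries: 3 genes were called without N2 tBOOH replicate 1 (*grd-1*, *wrt-2* and *ptr-22*) and 3 without untreated N2 replicate 3 (*grd-1*, *wrt-2* and *wrt-10*), with median log2 fold changes of -0.72 and -1.10 over the 62 genes. The quasi-likelihood test also called 3 of the 62, and 233 of all 14334 genes. Dispersions from the 4 libraries compared called 26 of the 62 and 2317 of all genes, against 766 of all genes in the main test. Molting-cycle and cuticle genes moved with this result. Of the 26, 20 fell in N2 and none rose, with a median log2 fold change of -3.54, and their part in the fall of the Hedgehog-related genes was not tested.

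The warthog genes fell most as a group, with 6 of 9 called lower, none higher, and a median log2 fold change of -2.42. *wrt-10*, which is expressed in the epidermis, had 6.94 and 9.28 CPM in tBOOH-treated N2 worms, against 67.6 and 215 CPM in untreated N2. It was thus 17.4-fold lower (log2 fold change -4.12, SE 0.69 in the fit of DESeq2, adjusted p = 8.10e-05 in the exact test of edgeR). *wrt-2*, which overlaps *pccb-1* on the opposite strand, had 3.72 and 5.30 CPM with tBOOH, against 37.7 and 112 CPM without (log2 fold change -4.05, SE 0.66, adjusted p = 1.67e-05, exact test). In both genes the untreated libraries differed by about 3-fold from each other, yet the lower of them was still far above the higher treated one. *wrt-1*, one of the warthogs with a Hog domain, had 2.71 and 9.66 CPM with tBOOH, against 28.1 and 89.1 CPM without (log2 fold change -3.24, SE 0.70, adjusted p = 0.00275, exact test). *wrt-4* had 8.63 and 28.4 CPM in treated worms, against 138 and 166 CPM in untreated worms. For *wrt-6* the levels were 12.7 and 47.7 CPM with and 105 and 217 CPM without tBOOH. *wrt-9* had 9.47 and 27.7 CPM with tBOOH, against 68.5 and 80.3 CPM without. In each of these 3 genes treated replicate 1 was the lowest library of the 4, and the log2 fold changes were -3.04, -2.42 and -2.004 (adjusted p = 0.00265, 0.0401 and 0.0287, exact test). The 3 warthogs that were not called behaved in their own ways. *wrt-8* had 14.04 and 39.2 CPM with tBOOH, against 20.7 and 12.3 CPM without, and its groups overlapped. *wrt-5* stood at 3.89 and 4.17 CPM with and 3.22 and 4.02 CPM without tBOOH. *wrt-3* was at most 1.72 CPM in any N2 library, too low to show a change at this depth.

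Among the groundhog genes only *grd-1* was called, of 11 measured, and the median log2 fold change was -1.13. *grd-1* had 3.38 and 7.77 CPM in tBOOH-treated N2 worms, against 55.0 and 121 CPM in untreated N2, a 15.8-fold lower level (log2 fold change -3.98, SE 0.54, adjusted p = 1.37e-08, exact test of edgeR). It was the call with the lowest adjusted p of the 62 genes, and it was called under all 10 alternatives run for this comparison, with log2 fold changes from -4.76 to -3.30. The 3 groundhogs with the highest CPM, *grd-14*, *grd-6* and *grd-5*, did not separate treated from untreated worms. *grd-14* had 37.6 and 143 CPM with tBOOH, against 236 and 109 CPM without. *grd-6* had 39.1 and 116 CPM with tBOOH, against 251 and 87.8 CPM without, and *grd-5* had 32.7 and 94.9 CPM, against 169 and 82.4 CPM. In these 3 genes treated replicate 1 was low and treated replicate 3 lay between the untreated libraries, whereas both treated libraries of *grd-1* were low.

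Of the 16 ground-like genes, 3 were called lower and none higher, with a median log2 fold change of -1.499. *grl-7*, whose product is found in the apical matrix of excretory duct and pore cells, had 20.8 and 65.7 CPM with tBOOH, against 216 and 471 CPM without (log2 fold change -2.99, SE 0.63, adjusted p = 0.00331, exact test of edgeR). *grl-5* had 5.08 and 24.6 CPM with tBOOH, against 67.6 and 128 CPM without (log2 fold change -2.72, adjusted p = 0.0244). *grl-15*, an exon of which overlaps the opposite-strand gene Y75B8A.19, had 2.20 and 4.74 CPM, against 19.3 and 53.8 CPM (log2 fold change -3.40, adjusted p = 0.00390). The groups of all 3 genes stood apart. *grl-16*, by far the most abundant gene of the 62, had 283 and 1342 CPM in treated worms, against 2058 and 1156 CPM in untreated worms, so that only treated replicate 1 was low (adjusted p = 0.648, exact test). *grl-21* had 31.5 and 51.7 CPM with tBOOH, against 141 and 29.7 CPM without. The quahog gene *qua-1*, required for molting, had 20.98 and 63.7 CPM with tBOOH, against 109.5 and 354 CPM without. Its groups did not overlap, but its log2 fold change of -2.45 did not pass the exact test (adjusted p = 0.0697). *hog-1*, which encodes a Hog domain protein, had 2.54 and 4.55 CPM, against 8.05 and 6.90 CPM (log2 fold change -1.08, adjusted p = 0.352, exact test).

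The patched-related genes were split. Of 22, 3 rose, 1 fell and 18 were not called, and the median log2 fold change was -0.32. *ptr-22* had 10.8 and 13.5 CPM in tBOOH-treated N2 worms, against 1.15 and 2.30 CPM in untreated N2, where it rested on 5 and 12 counts (log2 fold change 2.78, SE 0.70, adjusted p = 0.00413, exact test of edgeR). *ptr-13* had 41.3 and 24.4 CPM with tBOOH, against 13.6 and 6.51 CPM without (log2 fold change 1.72, SE 0.52, adjusted p = 0.0194). *ptr-8*, which overlaps *sra-10* on the opposite strand, had 63.3 and 41.9 CPM, against 23.9 and 14.6 CPM (log2 fold change 1.45, SE 0.46, adjusted p = 0.0322). This was the least firm of the 14 calls, lost under 7 of 10 alternatives. *ptr-19* fell to 0.169 and 1.89 CPM, 1 and 10 counts, in tBOOH-treated N2, against 9.20 and 11.3 CPM in untreated N2 (log2 fold change -3.32, SE 0.85, adjusted p = 0.000462). The 3 *ptr* genes with the highest CPM were not called. *ptr-4*, required for molting, had 29.3 and 67.3 CPM with tBOOH, against 87.9 and 210.2 CPM without, and its groups did not overlap (log2 fold change -1.63, adjusted p = 0.154, exact test). *ptr-2* had 135 and 136 CPM, against 95.0 and 97.1 CPM, a difference of 0.50 on the log2 scale. *ptr-23* had 100.2 and 179 CPM, against 137 and 58.8 CPM, with overlapping groups.

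The 2 patched genes differed in sign. *ptc-1*, known for its role in cytokinesis of the germ line, had 597 and 476 CPM with tBOOH, against 338 and 288 CPM without. *ptc-3*, required for larval growth and molting, had 120 and 158 CPM with tBOOH, against 283 and 401 CPM without. Neither pair of groups overlapped, and neither difference passed the exact test of edgeR, with log2 fold changes of 0.78 (adjusted p = 0.383) and -1.30 (adjusted p = 0.0815). DESeq2 called *ptc-3* and *qua-1* lower. With dispersions from all 8 libraries, the exact test called none of *ptc-1*, *ptc-3* and *qua-1*. With dispersions from the 4 N2 libraries it called *ptc-1* higher and *ptc-3* and *qua-1* lower.

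**Figure D2:**
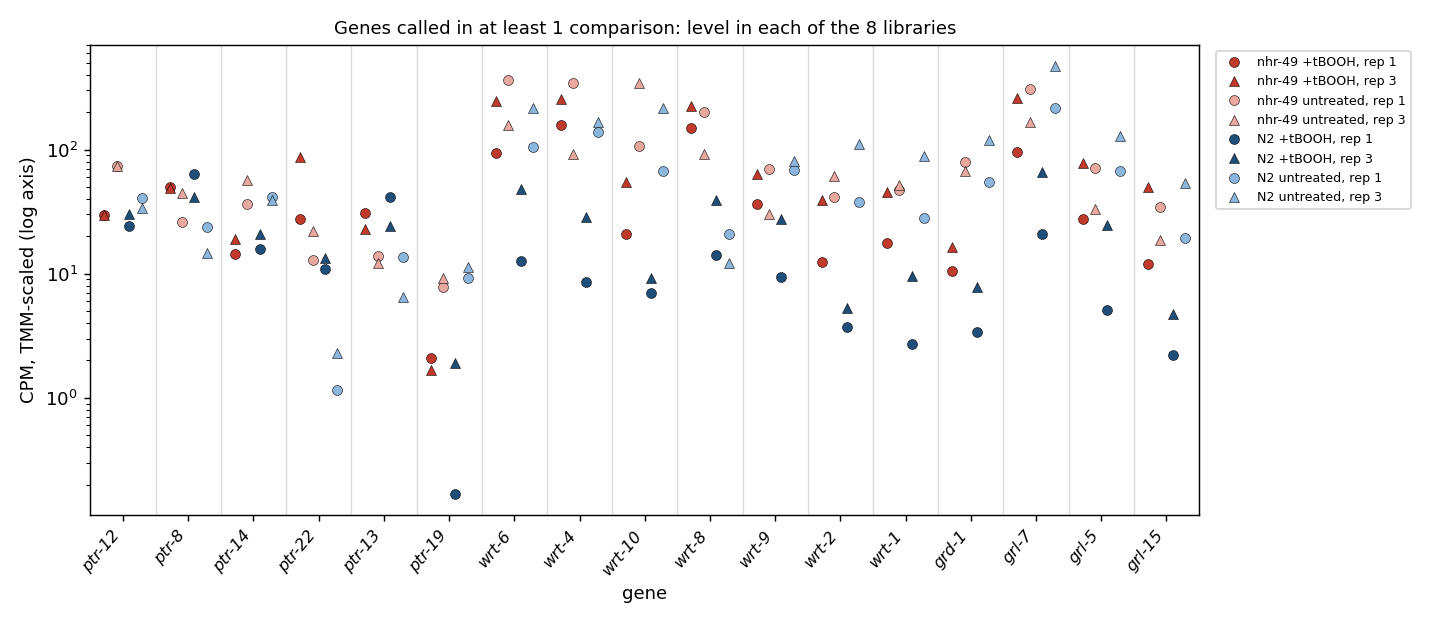
Level in CPM (log axis) in each library of the 17 genes called in at least 1 of the 4 comparisons, with circles for replicate 1 and triangles for replicate 3. For *wrt-10*, *wrt-2* and *grd-1* both tBOOH-treated N2 libraries lie below 10 CPM, and for *ptr-22* and *wrt-8* both untreated N2 libraries lie below all 4 *nhr-49* libraries.

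In *nhr-49*(*nr2041*) worms exposed in the same way, *grd-1*, *wrt-10*, *ptr-12* and *ptr-14* fell. edgeR's exact test called 4 of 62 lower (6.45%) and none higher, while 1.91% of all genes fell and 2.72% rose. At an unadjusted p under 0.05 there were 12, against 14.6% of all genes, and DESeq2 called 4, all lower. The quasi-likelihood test called 0 after adjustment, with 11 at an unadjusted p under 0.05. The median log2 fold change was -0.50, against 0.04 over all genes. Both treated libraries lay below both untreated ones for 19 genes (30.6%, against 18.9% of all genes) and above them for 8 (12.9%, against 19.6%). Leaving out a library moved the 4 calls to 1 without untreated *nhr-49* replicate 3, 2 without tBOOH-treated *nhr-49* replicate 3, and 6 without untreated *nhr-49* replicate 1, where the median over the 62 genes was 0.06. Without tBOOH-treated *nhr-49* replicate 1, *ptr-22* alone was called, as higher. With dispersions from the 4 *nhr-49* libraries, *grd-1* and *wrt-10* were called. Of the molting-cycle and cuticle genes, 2 of 26 fell, with a median log2 fold change of -0.84.

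*grd-1* had 10.5 and 16.4 CPM in tBOOH-treated *nhr-49*, against 79.8 and 67.7 CPM in untreated *nhr-49* (log2 fold change -2.45, SE 0.53, adjusted p = 0.000881, exact test of edgeR). *wrt-10* had 21.02 and 54.3 CPM with tBOOH, against 107 and 344 CPM without (log2 fold change -2.58, SE 0.67, adjusted p = 0.0220). Both had also been called lower in N2. *ptr-12* had the closest replicates of the called genes, with 29.7 and 30.0 CPM in treated mutants, against 74.1 and 73.3 CPM in untreated mutants (log2 fold change -1.30, SE 0.35, adjusted p = 0.0102). *ptr-14* had 14.5 and 19.1 CPM with tBOOH, against 36.8 and 57.3 CPM without (log2 fold change -1.49, SE 0.43, adjusted p = 0.0150). In N2 the corresponding changes of these 2 genes were -0.44 and -1.13 on the log2 scale, not called, though both treated libraries lay below both untreated ones. *ptr-12* had 24.2 and 30.3 CPM with and 40.5 and 33.5 CPM without tBOOH in N2. Its untreated level was thus higher in *nhr-49* than in N2, a difference that was not called (log2 fold change 0.99, adjusted p = 0.223, exact test).

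Several warthog and ground-like genes that fell in N2 had overlapping treated and untreated levels in *nhr-49*. *wrt-4* had 157 and 254 CPM in tBOOH-treated mutants, against 347 and 93.0 CPM in untreated mutants. *wrt-6* had 93.4 and 248 CPM, against 364 and 158 CPM. *wrt-9* had 36.4 and 63.3 CPM with tBOOH, against 69.9 and 30.1 CPM without. In all 3, untreated replicate 1 was the highest library and untreated replicate 3 lay below or between the treated ones. *grl-15* had 11.9 and 50.4 CPM with tBOOH, against 34.7 and 18.6 CPM without. *grl-7* had 95.0 and 263 CPM, against 308 and 166 CPM, and *grl-5* had 27.6 and 77.8 CPM, against 70.4 and 33.5 CPM. *wrt-2* and *wrt-1* did keep their treated libraries below the untreated ones, at 12.4 and 38.9 CPM against 41.4 and 61.4 CPM for *wrt-2* and 17.7 and 45.6 CPM against 47.1 and 52.1 CPM for *wrt-1*, but did not pass the exact test (adjusted p = 0.565 and 0.821). *ptr-19* had 2.10 and 1.66 CPM, against 7.77 and 9.30 CPM (log2 fold change -2.17, adjusted p = 0.0511). *ptr-15* had 2.80 and 9.78 CPM, against 12.4 and 48.0 CPM (log2 fold change -2.26, adjusted p = 0.0955). On the side of higher values, *ptr-22* had 27.8 and 86.4 CPM with tBOOH, against 12.9 and 21.9 CPM without (log2 fold change 1.70, adjusted p = 0.101). *ptr-17* had 6.31 and 9.37 CPM, against 4.14 and 2.60 CPM (log2 fold change 1.23, adjusted p = 0.545). *grl-14* had 6.07 and 21.2 CPM, against 5.70 and 0.744 CPM (log2 fold change 2.12, adjusted p = 0.328), with 2 counts in the lowest library.

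**Figure D3:**
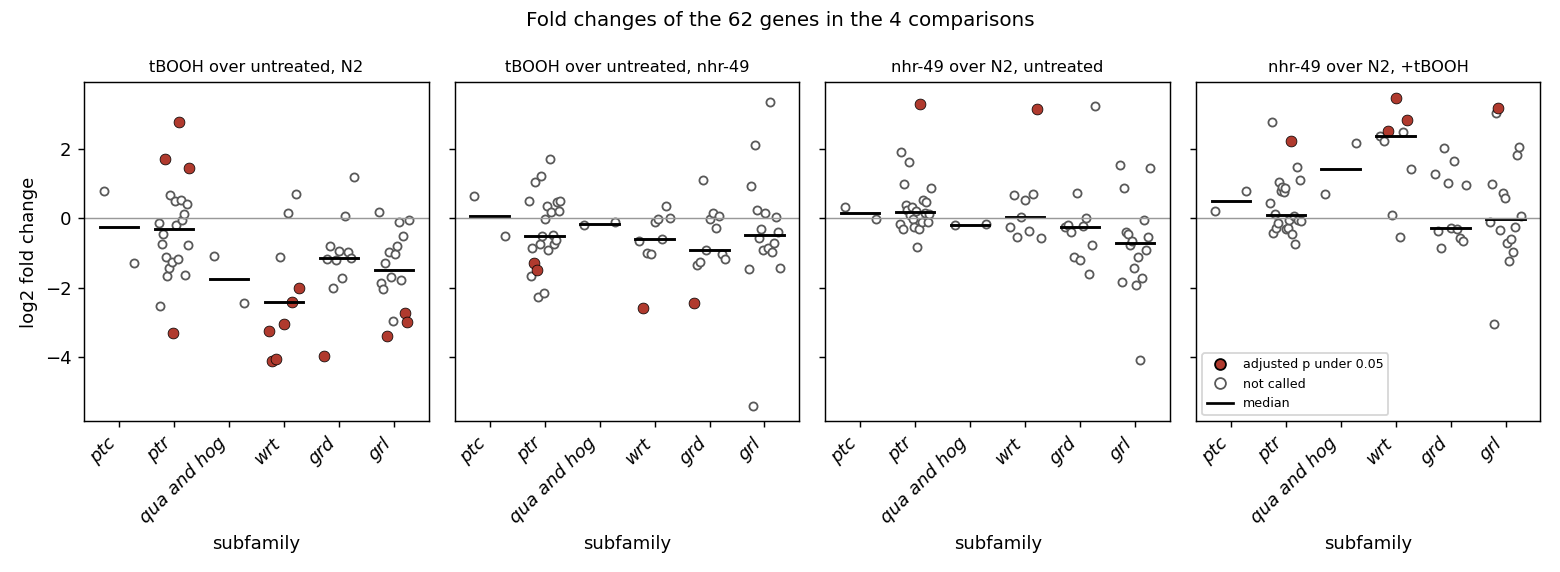
Log2 fold change of each of the 62 genes by subfamily in the 4 comparisons, with filled points for genes called by the exact test and a bar at the median. The *wrt* median is -2.42 for tBOOH in N2, -0.61 for tBOOH in *nhr-49*, 0.04 between untreated genotypes and 2.36 between tBOOH-treated genotypes.

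Without tBOOH, 2 of the 62 genes differed between genotypes, and both were higher in *nhr-49* than in N2 (3.23%, against 0.802% of all genes higher and 0.195% lower, exact test of edgeR). The median log2 difference was -0.14, against -0.03 over all genes, and both mutant libraries lay above both N2 libraries for 10 genes (16.1%, against 18.3%) and below them for 9 (14.5%, against 20.7%). *wrt-8*, a warthog gene, had 200.4 and 91.5 CPM in untreated *nhr-49*, against 20.7 and 12.3 CPM in untreated N2 (log2 fold change 3.14, SE 0.56, adjusted p = 0.000262). *ptr-22* had 12.9 and 21.9 CPM in untreated *nhr-49*, against 1.15 and 2.30 CPM in untreated N2 (log2 fold change 3.30, SE 0.71, adjusted p = 0.00115). The quasi-likelihood test called neither, with 7 genes at an unadjusted p under 0.05, against 8 of the 62 and 7.56% of all genes in the exact test. The exact test also called 0 after either untreated N2 library was left out, with 5 genes at an unadjusted p under 0.05 without replicate 1 and 6 without replicate 3, and 3 genes without untreated *nhr-49* replicate 1. The median of the 62 genes turned to 0.16 without untreated N2 replicate 3. No gene of the molting-cycle and cuticle set was called between untreated genotypes by the exact test, and its median log2 difference was -0.04. *ptr-15* had 12.4 and 48.0 CPM in untreated *nhr-49*, against 7.36 and 12.3 CPM in untreated N2 (log2 fold change 1.62, adjusted p = 0.631). On the lower side, the largest differences among genes with 20 or more counts in each N2 library were not called. *grl-21* had 31.6 and 13.8 CPM in *nhr-49*, against 141 and 29.7 CPM in N2 (log2 fold change -1.91). *grl-10* had 7.25 and 3.72 CPM, against 12.4 and 26.1 CPM (log2 fold change -1.83), and its groups did not overlap. *grd-5* had 57.0 and 25.3 CPM, against 169 and 82.4 CPM (log2 fold change -1.62), with groups that did not overlap (adjusted p = 0.332, exact test).

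With tBOOH, *wrt-2*, *wrt-4* and *grl-15*, which were called lower with tBOOH in N2, were higher in the mutant than in N2, as were *wrt-8* and *ptr-22*. The other 7 secreted genes called lower in N2 did not pass the test here. By edgeR's exact test 5 of the 62 genes were higher in tBOOH-treated *nhr-49* than in tBOOH-treated N2 (8.06%, against 1.79% of all genes) and 0 were lower (0.509% of all genes). Both mutant libraries lay above both N2 libraries for 24 genes (38.7%, against 20.4% of all genes) and below them for 2 (3.23%, against 22%). The median log2 difference was 0.51 over the 62 genes, 2.36 over the 9 warthogs and -0.05 over all genes. *wrt-4* had 157 and 254 CPM in tBOOH-treated *nhr-49*, against 8.63 and 28.4 CPM in tBOOH-treated N2 (log2 fold change 3.47, SE 0.63, adjusted p = 0.000845). *wrt-8* had 149 and 226 CPM, against 14.04 and 39.2 CPM (log2 fold change 2.82, SE 0.56, adjusted p = 0.00106). *wrt-8* was thus high in the mutant under both conditions, whereas *wrt-4* had 347 and 93.0 CPM in untreated *nhr-49* and 138 and 166 CPM in untreated N2, with no separation. *wrt-2* had 12.4 and 38.9 CPM in treated *nhr-49*, against 3.72 and 5.30 CPM in treated N2 (log2 fold change 2.50, adjusted p = 0.0285). *grl-15* had 11.9 and 50.4 CPM, against 2.20 and 4.74 CPM (log2 fold change 3.16, adjusted p = 0.0160). *ptr-22* had 27.8 and 86.4 CPM, against 10.8 and 13.5 CPM (log2 fold change 2.23, adjusted p = 0.0237). At an unadjusted p under 0.05 there were 19, against 9.72% of all genes. In *wrt-2*, *grl-15* and *ptr-22* the mutant library of replicate 3 was the highest of the 4, about 3-fold or more above that of replicate 1. Yolk genes summed to 3560 CPM in that library, against 67482 CPM in treated *nhr-49* replicate 1. In treated N2 they summed to 85701 and 40580 CPM, and the part of stage in these calls was not tested.

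Other secreted Hedgehog-related genes stood apart without passing the test, among them *wrt-10* and *grl-7* (adjusted p = 0.122 and 0.136, exact test of edgeR). *wrt-6* had 93.4 and 248 CPM in treated *nhr-49*, against 12.7 and 47.7 CPM in treated N2 (adjusted p = 0.0568, exact test of edgeR). *wrt-1* had 17.7 and 45.6 CPM, against 2.71 and 9.66 CPM (adjusted p = 0.0891), and *grl-14* had 6.07 and 21.2 CPM, against 0.677 and 2.65 CPM (adjusted p = 0.133). *ptr-3*, *grl-21* and *grd-6* had the lowest differences of the genes with enough counts, at -0.73, -0.73 and -0.66 on the log2 scale, and the groups of each overlapped. Single libraries decided the calls. Without tBOOH-treated N2 replicate 1 the exact test called 0 (6 at an unadjusted p under 0.05), without tBOOH-treated N2 replicate 3 it called 3, without tBOOH-treated *nhr-49* replicate 1 it called 15, and without tBOOH-treated *nhr-49* replicate 3 it called 2. The quasi-likelihood test called 0, with 19 at an unadjusted p under 0.05, and DESeq2 called 9. Of the 26 molting-cycle and cuticle genes, 10 were higher and none lower in treated *nhr-49* than in treated N2, with a median log2 difference of 2.25, and their part in this result was not tested.

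The size of the tBOOH response was compared between genotypes as the log2 fold change in *nhr-49* minus that in N2, with the quasi-likelihood test of edgeR. None of the 62 genes had an adjusted p under 0.05 for it, nor did any of the 14334, among which the lowest adjusted p was 0.185. DESeq2 also called 0 of the 62, with 14 at an unadjusted p under 0.05. At an unadjusted p under 0.05, 10 of the 62 had a larger (less negative) log2 change in *nhr-49*, against 2.6% of all genes, and 0 had a smaller one, against 1.05%. This number was 3 without untreated N2 replicate 3 and 3 without tBOOH-treated N2 replicate 1. The 10 were *grl-15*, *wrt-2*, *wrt-4*, *grl-10*, *grd-12*, *grl-7*, *wrt-1*, *grl-5*, *wrt-9* and *grl-14*. For *grl-15* the log2 fold changes were 0.23 in *nhr-49* and -3.40 in N2, a difference of 3.64 (unadjusted p = 0.00919, adjusted p = 0.999997, quasi-likelihood test of edgeR). For *wrt-2* they were -1.002 and -4.05, a difference of 3.05 (unadjusted p = 0.00935). For *wrt-4* they were -0.10 and -3.04, a difference of 2.94 (unadjusted p = 0.0130). The median difference over the 62 genes was 0.60, against -0.01 over all genes. After correction for all genes the data thus do not resolve a difference in response for any of the 62, and the groups that were called in N2 and not in *nhr-49* are not shown to differ between genotypes. One exception came from the fit without a filter on low counts, described with the other alternatives.

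**Figure D4:**
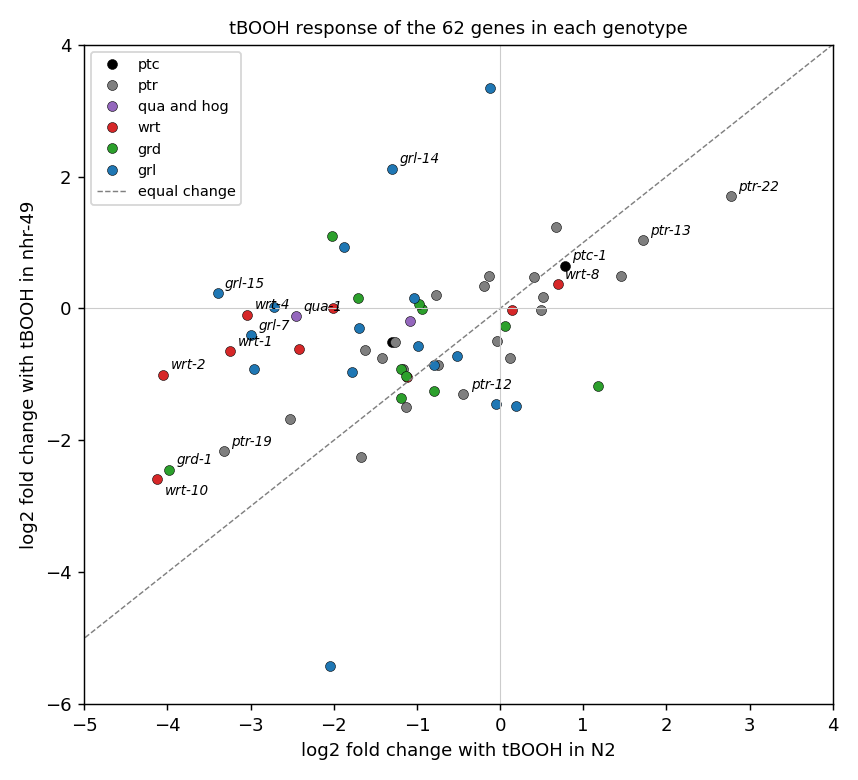
Log2 fold change with tBOOH in *nhr-49* (vertical axis) against that in N2 (horizontal axis) for each of the 62 genes, colored by subfamily, with a dashed line at equal change. *wrt-4*, *grl-15* and *grl-7* lie near 0 in *nhr-49* and at or below -2.99 in N2, while *grd-1* and *wrt-10* are low in both.

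Replicates differed by more than 2-fold in a larger share of these genes than of all genes in 3 of the 4 groups, with untreated *nhr-49* as the exception. In untreated N2, 22 of the 62 genes (35.5%) differed by more than 2-fold between the libraries, against 10.7% of all genes, and in tBOOH-treated N2 28 did (45.2%, against 12.7%). In *nhr-49* worms the shares were 35.5% against 26.1% with tBOOH and 32.3% against 32.8% without. The directions were mixed in untreated N2, where 12 genes were higher in replicate 3 and 10 in replicate 1. In tBOOH-treated N2, 25 were higher in replicate 3 and 3 in replicate 1. In tBOOH-treated *nhr-49*, 19 were higher in replicate 3 and 3 in replicate 1, while in untreated *nhr-49* 6 and 14 were. These counts are descriptive, without a test. Among genes with at least 20 counts in the higher library, the largest log2 difference was that of *grl-16* in untreated *nhr-49*, with 1579 and 310 CPM in replicates 1 and 3. *ptr-16* had 3.89 and 21.6 CPM in the tBOOH-treated N2 libraries. *ptr-10*, which overlaps F55F8.8 on the opposite strand, had 2.30 and 13.4 CPM in the untreated N2 libraries. In untreated N2, *wrt-10*, *wrt-2*, *wrt-1* and *qua-1* were about 3-fold higher in replicate 3, and *grd-6*, *grd-5*, *grd-14* and *grl-21* were about 2-fold or more higher in replicate 1.

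Of 8 other patched-domain, dispatched-like, sterol-sensing and Gli-related genes (*che-14*, *ptd-2*, *daf-6*, *ncr-1*, *ncr-2*, *scp-1*, *hmgr-1* and *tra-1*), none was called for tBOOH in either genotype or between untreated genotypes by edgeR's exact test, and the median log2 fold changes were 0.20 in N2 and 0.09 in *nhr-49*. *che-14*, a Dispatched-like gene needed for apical secretion in epithelia, was higher in tBOOH-treated *nhr-49* than in tBOOH-treated N2, with means of 14.5 and 3.12 CPM (log2 fold change 2.22, adjusted p = 0.0486). Of 12 measured regulators of the epidermis and the molting cycle, 3 fell and none rose with tBOOH in N2 (against 3.14% of all genes lower), with a median log2 fold change of -0.78, and none was called in the other 3 comparisons. *lin-42*, the homologue of *period* whose mRNA cycles with the molts, averaged 34.9 CPM with and 241 CPM without tBOOH in N2 (log2 fold change -2.79, adjusted p = 0.00291). *blmp-1* and *elt-3*, which encode epidermal transcription factors, averaged 23.1 and 17.7 CPM with tBOOH, against 67.0 and 43.9 CPM without (adjusted p = 0.0417 and 0.0271, exact test). *nhr-23*, a nuclear receptor that promotes molting, averaged 43.1 CPM with and 50.02 CPM without tBOOH in N2 and was not called.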

How the data were processed

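RNA was depleted of ribosomal RNA. The authors mapped reads as single ends with STAR against ce10 and deposited raw counts, whole numbers per gene symbol. The other deposited table holds a signal, these counts after TMM scaling (CPM), limited to the genes in which 2 or more libraries exceeded a CPM of 1. The counting program and annotation are not given in the sources used here. These CPM were recomputed from the counts and differed from the deposited signal by at most 4.5e-06. In edgeR 4.0.16 (R 4.3.3), groups were compared by the exact test, with tagwise dispersions from all 8 libraries (common dispersion 0.131) and Benjamini-Hochberg adjustment over 14334 genes. A gene was called at an adjusted p under 0.05. The interaction was fitted by quasi-likelihood, with 4 residual and 4.61 prior degrees of freedom. Standard errors are from DESeq2 1.42.0. The exact and interaction tests were also run on counts simulated with known changes from the fitted dispersions. Those counts held no differences of stage between libraries, so the run does not bear on such differences. Samples were grouped by the labels. With 2 libraries a group, of 2157766 to 5852727 counts, precision is limited.

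Genes named with values are those called in any comparison, the 3 with the highest CPM of each subfamily, the 3 with the largest and smallest fold changes in each comparison (if every library of the higher group had 20 or more counts), the 3 lowest interaction p-values and the 3 largest differences between replicates (20 or more counts in the higher library). A few others, such as *wrt-3*, *wrt-5* and *grl-25*, were named after their values were seen. The members, lists and rules were chosen with earlier results of these data known. Gene identifiers and exon lengths are from WBcel235, another build, so no coordinates are given. Alternatives were the quasi-likelihood test, DESeq2, RLE normalization, no filter on low counts, a dispersion fit to the 4 libraries of a comparison, a block for the replicate number, and leaving out each library.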

Additional observations from a re-analysis of the deposited data

Results flagged for a closer look

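Both tBOOH-treated libraries of *grd-12* and of *grl-14* lay below both untreated ones in N2 and above both in *nhr-49*. The share of all genes with this pattern was not counted, so it is not shown to be particular to these genes. The log2 response in *nhr-49* minus that in N2 was 3.12 for *grd-12* and 3.47 for *grl-14*, with unadjusted p-values of 0.0212 and 0.0354 and adjusted p-values of 0.999997 in the quasi-likelihood test of edgeR. *grd-12* had 10 and 21 counts in tBOOH-treated and 4 and 3 in untreated *nhr-49*, and 3 and 6 counts in tBOOH-treated and 10 and 23 in untreated N2. *grl-14* had 26 and 102 counts in tBOOH-treated and 11 and 2 in untreated *nhr-49*, and 4 and 14 counts in tBOOH-treated and 13 and 27 in untreated N2. An exon of each overlaps that of a gene on the opposite strand, F02D8.1 for *grd-12* (and *xbx-1* on the same strand) and *sbt-1* for *grl-14*. Genotypes were compared in this way for all 62 genes.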

How the results depend on the processing

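For tBOOH in N2, 14 of the 62 genes were called, and the count was 3 in the quasi-likelihood test (*grd-1*, *wrt-2* and *wrt-10*), 26 with dispersions from the 4 libraries compared, and 3 to 13 without 1 library. For tBOOH in *nhr-49*, 4 were called, 0 in the quasi-likelihood test, 2 with dispersions from the 4 libraries, and 1 to 6 without 1 library. Between untreated genotypes, 2 were called, 0 in the quasi-likelihood test, 1 with a replicate block, and 0 to 3 without 1 library. Between treated genotypes, 5 were called, 0 in the quasi-likelihood test, 9 in DESeq2, and 0 to 15 without 1 library. For the interaction, 0 were called, and 0 without each library, but 9 without a filter on low counts, where 113 of 19796 genes were called and the prior degrees of freedom were infinite. Where a library left out leaves 1 sample, that sample is assumed to vary like the others. Over all 14334 genes, the calls for tBOOH in N2 were 766 in the exact test and 233 in the quasi-likelihood test. With dispersions from the 4 libraries compared they were 2317. The labels do not say what a replicate number marks, so libraries of the same number were not treated as pairs. The correlation of the deviations of same-numbered libraries, over all genes, ranged from -0.04 to 0.32. With the replicate number as a block in the quasi-likelihood fit, 14, 5, 1 and 5 genes were called in the 4 comparisons, of which 11, 4, 1 and 2 were among those of the exact test. Without the block, the quasi-likelihood test called 3, 0, 0 and 0. The blocked fit thus differs from the exact test in both test and model. Exact-test calls that it did not make were those of *wrt-6*, *wrt-9* and *ptr-8* for tBOOH in N2 and of *wrt-8* between untreated genotypes. Between treated genotypes they were those of *wrt-4*, *wrt-8* and *grl-15*. Of the alternative values for single genes, 311 stayed on the same side of the threshold with the same sign, 85 lost and 9 gained a call, and 1 changed sign: the uncalled difference of *grd-6* between treated genotypes, -0.66, was -1.24 to 0.43 without 1 library, with the change of sign without tBOOH-treated N2 replicate 3. Except where a value above shows it, the cause was not tested. Depth limits the genes near the floor, such as *ptr-19* in treated N2.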
